A study of Mus musculus with 5 samples.

Results

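The axon guidance ligands and receptors were taken by symbol, as all genes of the semaphorin, plexin, Slit, Robo, ephrin, Eph receptor, Unc5 and numbered netrin families together with *Dcc* and *Neo1*. This gave 68 of 32286 features, namely 35 ligands and 33 receptors. The rule used symbols and no measured value. Counts were available for 5 tumors of a mouse model of synovial sarcoma (SyS). These *hSS2* mice carry a silent human *SS18::SSX2* cassette in the *Rosa26* locus, which TATCre protein, injected into the limb, turns on. All 5 tumors carried this allele, no tissue without the fusion was measured, and the fusion transcript had no feature of its own. The tumors were collected at morbidity and, by the histology in the labels, 2 were biphasic (BP, with epithelial and spindle areas), 1 was monophasic (MP), 1 was mixed (MP+BP) and 1 was poorly differentiated and monophasic (PD+MP). Whether BP 1 and BP 2, whose labels share a leading number, came from 1 animal is not given in the sources used here.

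Guidance cues steer growing axons, migrating cells and vessels. Ephrins stay on the membrane of the sending cell and are read by Eph receptor tyrosine kinases on a neighbor, ephrin-A members mostly by EphA and ephrin-B members mostly by EphB receptors. Slit proteins are secreted and read by Robo receptors, netrins are read by *Dcc*, *Neo1* and the Unc5 receptors, and semaphorins by plexins, for which the secreted class 3 members usually need the neuropilins *Nrp1* or *Nrp2*. In vessels, *Efnb2* is the textbook arterial ephrin and *Ephb4* its venous receptor.

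After removal of cells with under 750 genes, cells over 25% mitochondrial counts and likely doublets, 39559 of 51670 cells were kept, and 4 classes were large enough to be summed in every tumor. These were SyS-like (25433 cells), endothelial-like (2443), macrophage-like (3682) and stromal cells (1394, of which 1243 were pericyte-like and 151 fibroblast-like). Classes were named here from marker genes, and no member entered the clustering. The summed level of 13 SyS markers was 3445 to 4938 counts per 1000000 (CPM) in SyS-like cells and at most 250 CPM in any other class. CPM here relates the UMIs (counted molecules) of a gene to all UMIs of the cells of that class in that tumor. PD+MP contributed 80 endothelial-like cells and 165 stromal cells, 127 of them fibroblast-like, whereas stroma of the other tumors was nearly all pericyte-like. The Y-linked *Uty* was among the leading genes of some, but not all, SyS-like clusters drawn from PD+MP. Of the kept cells, 131 cell barcodes occurred in more than 1 tumor, with at most 18 in a pair. Values for 5 tumors are listed throughout in the order BP 1, BP 2, MP, MP+BP and PD+MP, and each is a level in CPM of that gene, not scaled for transcript length, so that levels are compared between classes and tumors but not between genes.

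Neighboring members fell to different classes at 2 loci, and the promoters of these genes are shown because each pair differs in its cell class. On mouse chromosome 9, *Robo4* (endothelial-like) and *Robo3* (SyS-like) lie 554 bp apart on opposite strands, *Robo4* at chr9:37401897-37415115 and *Robo3* at chr9:37415669-37433246. The 554 bp separate their 3′ ends, and the promoters lie at the far ends of the genes. On chromosome 3, *Efna1* (endothelial-like, chr3:89271733-89281142) is followed after 32757 bp by *Efna3* (SyS-like, chr3:89313899-89322965) and, 10425 bp further, by *Efna4* (SyS-like). Gene positions are from GENCODE release M21 of GRCm38. The windows printed below come from RefSeq (GRCm38.p6), run 5′ to 3′ on the strand of the gene, and span 250 bases before and 50 bases after a transcript start. They are *Robo4* at chr9:37401722-37402021 (+), *Robo3* at chr9:37433126-37433425 (−), *Efna1* at chr3:89280902-89281201 (−) and *Efna3* at chr3:89322890-89323189 (−), and capitals mark each CG dinucleotide.
Robo4: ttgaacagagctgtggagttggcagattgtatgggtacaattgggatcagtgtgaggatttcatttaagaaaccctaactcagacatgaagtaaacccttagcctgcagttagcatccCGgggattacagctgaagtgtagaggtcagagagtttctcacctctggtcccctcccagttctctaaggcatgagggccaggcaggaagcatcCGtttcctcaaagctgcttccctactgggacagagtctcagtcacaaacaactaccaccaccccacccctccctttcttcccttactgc
Robo3: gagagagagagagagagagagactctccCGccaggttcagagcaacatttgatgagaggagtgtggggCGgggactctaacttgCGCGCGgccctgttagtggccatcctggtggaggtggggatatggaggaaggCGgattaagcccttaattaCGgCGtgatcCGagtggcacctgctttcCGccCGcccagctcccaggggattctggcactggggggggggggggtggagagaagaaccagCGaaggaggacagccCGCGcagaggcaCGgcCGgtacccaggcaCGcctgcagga
Efna1: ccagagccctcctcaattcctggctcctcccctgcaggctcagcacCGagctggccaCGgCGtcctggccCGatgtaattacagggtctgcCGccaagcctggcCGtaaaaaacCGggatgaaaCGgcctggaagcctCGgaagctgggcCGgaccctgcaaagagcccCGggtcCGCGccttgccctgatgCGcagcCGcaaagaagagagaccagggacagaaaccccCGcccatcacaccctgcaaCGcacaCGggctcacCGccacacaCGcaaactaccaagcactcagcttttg
Efna3: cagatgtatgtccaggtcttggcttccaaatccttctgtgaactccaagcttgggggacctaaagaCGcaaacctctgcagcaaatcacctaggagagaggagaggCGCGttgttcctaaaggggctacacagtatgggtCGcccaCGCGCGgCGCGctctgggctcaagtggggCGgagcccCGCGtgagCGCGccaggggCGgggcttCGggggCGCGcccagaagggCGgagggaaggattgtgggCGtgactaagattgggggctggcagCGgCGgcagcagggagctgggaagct
The *Robo4* window held 2 CG dinucleotides, whereas the windows of *Robo3*, *Efna1* and *Efna3* held 17, 20 and 22. Of 32851 windows in the table, 23.3% held as few as that of *Robo4*, and 31.4%, 26.5% and 23.1% held at least as many as those of the other genes. *Efna1* and *Efna3* each have a further listed start, with 20 and 34. Of the 58 members with a listed promoter, 86.2% had at least 10 in their richest window, against 45.8% of 27025 genes. The promoter count did not set the classes apart, with a median of 21 for the 18 listed members highest in SyS-like cells and 20 for the 11 highest in endothelial-like cells. These counts describe the letters of the windows, and nothing was measured on the promoters here.

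The first comparison asked which cell class carried each cue and each receptor. Of the 68 members, 58 (31 ligands and 27 receptors) passed the filter on low counts, and 40 of them were higher in 1 class than in each of the other 3. SyS-like cells held 22 of these (10 ligands and 12 receptors), endothelial-like cells 13 (8 and 5), macrophage-like cells 3 and stromal cells 2. Over the 12242 tested genes that were no clustering feature, 14.4% were highest in SyS-like cells, 7.75% in endothelial-like cells, 14.2% in macrophage-like cells and 4.01% in stromal cells. A member can pass the filter through the class in which it is high, so these counts describe the module and are not a test of it. The 10 members that did not pass the filter were *Sema3b*, *Sema3d*, *Sema4f*, *Epha6*, *Epha8*, *Epha10*, *Ephb6*, *Dcc*, *Ntn5* and *Plxnb3*. The 18 tested members highest in no single class were *Sema3c*, *Sema3e*, *Sema4a*, *Sema4c*, *Sema4g*, *Sema6c*, *Plxna1*, *Plxna4*, *Plxnb1*, *Plxnb2*, *Slit2*, *Robo1*, *Efna2*, *Epha1*, *Epha3*, *Ephb3*, *Ntn4* and *Unc5b*. Another annotated gene overlaps *Slit2*, *Slit3*, *Ephb1*, *Ntn1* and *Ntn3* on the same strand, so reads in the overlap may be assigned to either. Conversely, 15 tested members were lower in macrophage-like cells than in every other class (13.6% of the same genes were), 6 in endothelial-like cells (4.2%), 1 in SyS-like cells (5.88%) and none in stromal cells (3.27%).

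Between SyS-like and macrophage-like cells the contrast was widest, with 44 members higher and 5 lower in SyS-like cells (40.0% and 26.4% of genes) and a median log2 fold change of 2.94 over the members against 0.22 over the genes. Against endothelial-like cells 39 were higher and 17 lower (32.3% and 23.3%; medians 1.93 and 0.14), and against stromal cells 29 were higher and 6 lower (28.1% and 16.1%; medians 0.91 and 0.18). Between the other classes, 28 members were higher and 9 lower in endothelial-like than in macrophage-like cells (27.6% and 24.8% of genes), 16 higher and 20 lower in endothelial-like than in stromal cells (18.6% and 15.9%), and 6 higher and 28 lower in macrophage-like than in stromal cells (26.4% and 25.9%). The molecules of all 35 ligands summed to 2806 to 3427 CPM in SyS-like cells, 1165 to 1998 in endothelial-like cells, 1154 to 2235 in stromal cells and 225 to 336 in macrophage-like cells. For the 33 receptors the sums were 2658 to 3026, 1435 to 2025, 577 to 813 and 409 to 579 CPM in that order. SyS-like cells thus stood above the other 3 classes in every tumor on both sums.

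**Figure D1:**
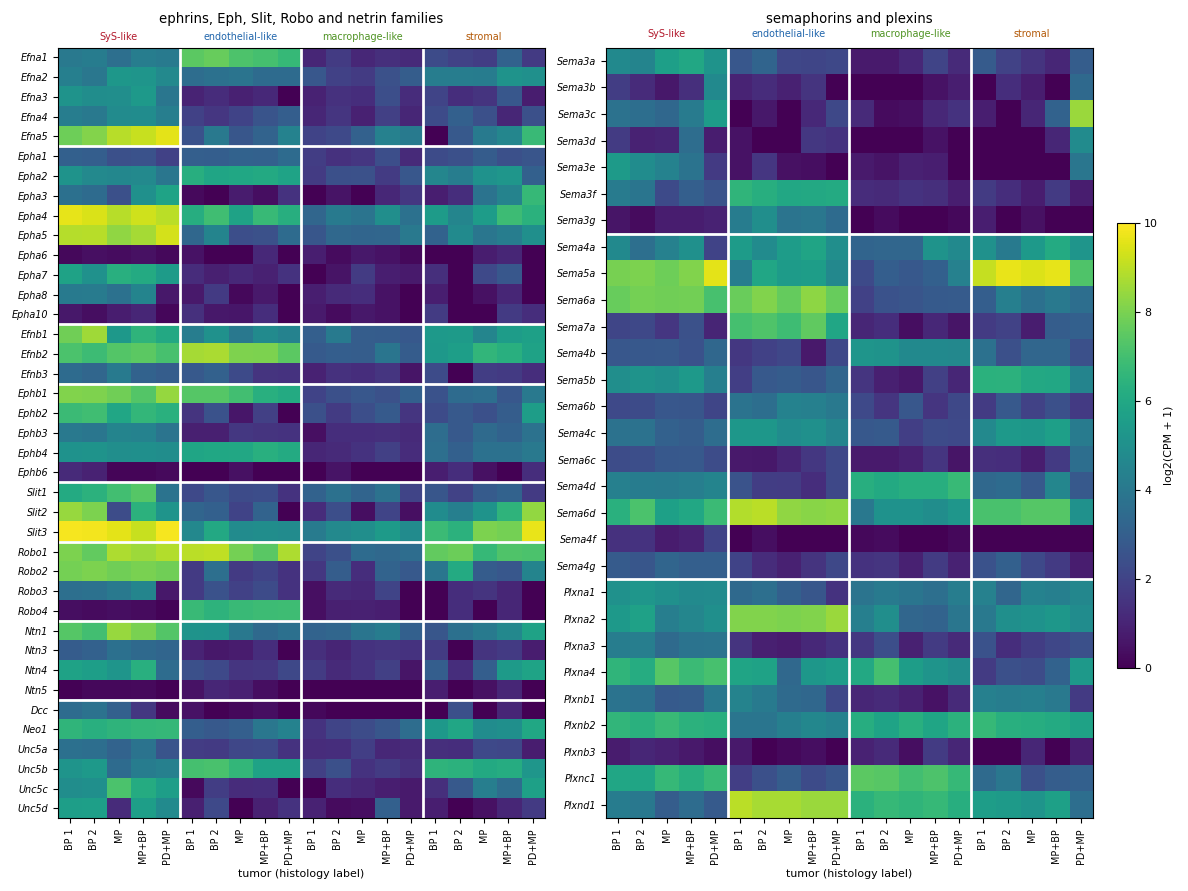
Levels of the 68 members (rows, by family) in the 4 cell classes of the 5 tumors (columns), as log2(CPM + 1). EphA receptors, Slit ligands and netrins are brightest in the SyS-like columns, several semaphorins and plexins in the endothelial-like columns, and the macrophage-like columns are the darkest.

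The Eph and ephrin families were split by class. Of 5 ephrin-A ligands 3 were highest in SyS-like cells (*Efna3*, *Efna4*, *Efna5*) and 1 in endothelial-like cells (*Efna1*). Of 3 ephrin-B ligands, *Efnb1* and *Efnb3* were highest in SyS-like cells and *Efnb2* in endothelial-like cells. Among the receptors, *Epha4*, *Epha5*, *Epha7*, *Ephb1* and *Ephb2* were highest in SyS-like cells, and *Epha2* and *Ephb4* in endothelial-like cells. The call of *Efnb1* was lost against stromal cells without BP 1 (adjusted p = 0.057), without BP 2 (0.060) and with each pair of classes fitted alone (0.068), and that of *Efnb3* against endothelial-like cells without MP (0.18), without MP+BP (0.083) and without the tumor block (0.065). EphA receptors summed to 938 to 1381 CPM in SyS-like cells and to 129 to 213, 21.2 to 48.1 and 72.3 to 231 CPM in endothelial-like, macrophage-like and stromal cells.

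*Epha7*, an EphA receptor best known from brain patterning, stood at 53.8, 32.0, 78.5, 67.6 and 43.7 CPM in SyS-like cells. It was at 0.840 to 1.73 CPM in endothelial-like, 0 to 2.32 in macrophage-like and 0 to 5.53 CPM in stromal cells, so no class overlapped SyS-like cells. Its smallest log2 fold change (± SE) was 4.47 ± 0.47 against stromal cells (edgeR, adjusted p = 7.8e-07). *Epha5*, a receptor of the same subfamily, was at 476, 488, 321, 405 and 646 CPM in SyS-like cells. The other classes were at 4.22 to 21.8, 5.35 to 15.6 and 7.78 to 30.4 CPM (endothelial-like, macrophage-like, stromal), again without overlap, and the narrowest difference was 4.39 ± 0.30 against stromal cells (adjusted p = 5.6e-09). With each cell thinned to 2000 UMIs, *Epha5* was detected in 40.2% to 64.9% of SyS-like cells and in 0.952% to 4.48% of endothelial-like cells. Without thinning the shares were 81.7% to 91.0% and 2.69% to 7.50%, at median depths of 9991 and 4579 UMIs.

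*Efna5*, an ephrin-A ligand that can bind these receptors, was at 219.6, 281, 492, 571 and 764 CPM in SyS-like cells. It was lowest in BP 1 and BP 2 and highest in PD+MP. Other classes were far lower, at 4.69 to 20.7 CPM in endothelial-like and 2.99 to 20.2 in macrophage-like cells, and at 0, 5.90, 15.7, 23.2 and 108 CPM in stromal cells, where PD+MP stood apart. The smallest log2 fold change was 4.15 ± 0.52 against stromal cells (adjusted p = 5.5e-06). *Efna3*, a ligand on the study's list of genes switched on in SyS cells relative to mesenchymal cells (the SAT list), was at 34.5, 29.3, 29.6, 41.4 and 14.1 CPM in SyS-like cells against 0 to 1.40, 0.944 to 4.27 and 0.742 to 5.53 in endothelial-like, macrophage-like and stromal cells. PD+MP was the lowest tumor, and the smallest difference was 3.34 ± 0.32 against stromal cells (adjusted p = 2.5e-07).

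*Ephb1*, an EphB receptor also on the SAT list, was at 272, 266, 225, 159 and 344 CPM in SyS-like and at 165, 165, 123, 77.3 and 67.3 CPM in endothelial-like cells. SyS-like cells were higher in every tumor, yet the ranges of the classes overlapped, and the difference of 0.74 ± 0.25 (adjusted p = 0.017) was the narrowest among the named genes of this class. It missed the threshold without the MP tumor (adjusted p = 0.059), without MP+BP (0.064) and with doublets kept (0.061). Macrophage-like and stromal cells were at 2.99 to 7.49 and 4.67 to 15.6 CPM. *Epha4*, the most widely binding Eph receptor and here a counterpart of *Efna5*, lay at 781, 691, 492, 615 and 497 CPM in SyS-like cells, above 52.6 to 123, 8.81 to 29.5 and 22.1 to 116 CPM in the endothelial-like, macrophage-like and stromal classes.

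Among vessels' members, *Efna1*, an ephrin-A ligand of endothelium, was at 179.5, 201, 145, 132 and 104 CPM in endothelial-like cells. SyS-like, macrophage-like and stromal cells reached 11.5 to 17.9, 1.10 to 2.34 and 2.23 to 7.75 CPM, all below the lowest endothelial-like value, and the smallest log2 fold change was 3.55 ± 0.19 against SyS-like cells (adjusted p = 1.7e-10). Its neighbor *Efna3* had the reverse order, with SyS-like above endothelial-like cells in every tumor (4.62 ± 0.31, adjusted p = 2.6e-09). *Efnb2* was at 403, 418, 265, 258 and 179 CPM in endothelial-like cells against 116 to 179.7 in SyS-like cells, and its receptor *Ephb4* at 57.5, 60.8, 62.4, 77.6 and 67.3 CPM against 28.5 to 34.5. Both were given as counterparts, and in both the endothelial-like level lay above the SyS-like level of the same tumor in all 5 tumors, though for *Efnb2* the value of PD+MP was only at the upper end of the SyS-like range.

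**Figure D2:**
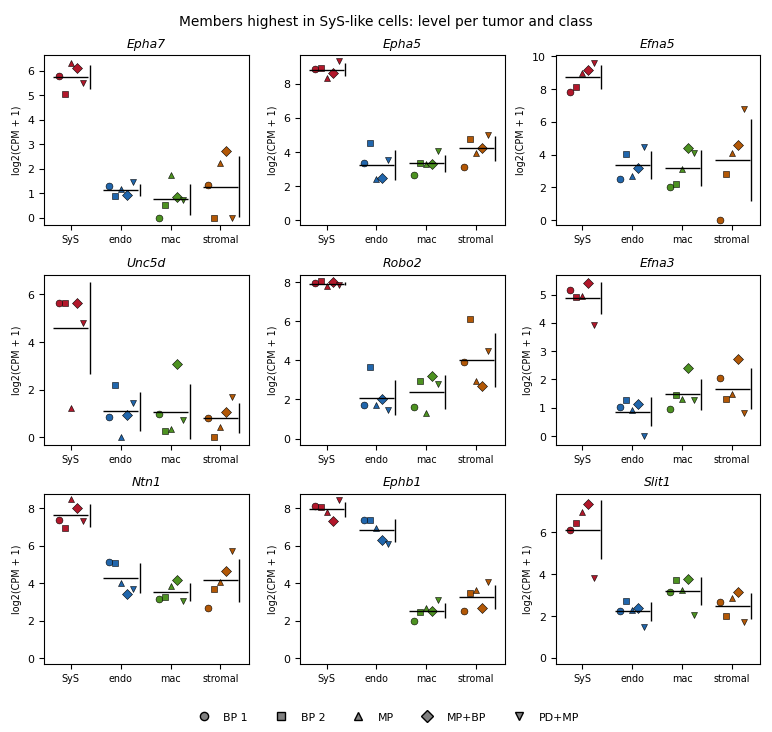
Levels, as log2(CPM + 1), of the named SyS-highest members and the SAT-list members in SyS-like (SyS), endothelial-like (endo), macrophage-like (mac) and stromal cells, with 1 point per tumor, the mean as a horizontal line and the SD as a vertical bar (n = 5). SyS-like points lie above all other classes for *Epha7*, *Epha5* and *Robo2*, *Ephb1* overlaps with endothelial-like cells, and for *Unc5d* and *Slit1* 1 tumor falls far below the other SyS-like values.

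The Slit ligands were SyS-like and partly stromal, and their receptors were divided between tumor and vessel. Slit ligands summed to 823 to 1360 CPM in SyS-like cells, 29.3 to 77.3 in endothelial-like, 26.1 to 58.2 in macrophage-like and 106 to 1154 in stromal cells. The highest stromal value was that of PD+MP, whose stroma was mostly fibroblast-like. *Slit3* gave most of the molecules of the SyS-like sum, with 939.7, 912, 773, 573 and 937 CPM, and was at 110.5, 84.1, 258, 238 and 824 CPM in stromal cells. Its call as highest in SyS-like cells was lost against stromal cells without BP 1 (adjusted p = 0.15), BP 2 (0.058) or MP (0.068) and with both BP tumors summed (0.068). *Slit1*, on the SAT list, was at 68.2, 84.8, 124, 164 and 12.9 CPM in SyS-like cells, with PD+MP far below the other tumors and only just above the highest macrophage-like value. Other classes were at 1.73 to 5.60 (endothelial-like), 3.19 to 12.8 (macrophage-like) and 2.23 to 7.75 CPM (stromal), and the narrowest difference was 2.56 ± 0.24 from macrophage-like cells (adjusted p = 8.2e-08).

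*Robo2*, a Slit receptor of neurons, was even across tumors at 242, 262, 226, 256 and 226 CPM in SyS-like cells. Endothelial-like, macrophage-like and stromal cells were at 1.73 to 11.5, 1.45 to 8.15 and 5.53 to 67.9 CPM, without overlap, and the smallest difference was 3.58 ± 0.41 against stromal cells (adjusted p = 2.3e-06). *Robo1*, the counterpart shared by both, was not highest in a single class. It stood at 256, 193, 431, 368 and 459 CPM in SyS-like and 502, 529, 242, 175 and 435 CPM in endothelial-like cells, which did not pass the test (-0.40 ± 0.34, adjusted p = 0.327), while macrophage-like cells were at 3.15 to 10.8 CPM.

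*Robo4*, the Robo receptor of vessel endothelium, was at 108, 87.7, 109.5, 115 and 117 CPM in endothelial-like cells and at 0.0694 to 0.309 CPM in SyS-like cells. Its 5 endothelial-like values lay close together and clear of all other classes, and the log2 fold change over SyS-like cells was 9.19 ± 0.40 (adjusted p = 1.3e-11). Stromal cells of all tumors held 2 UMIs, a ratio of 368 with a 95% counting interval of 102 to 3044. *Robo4* was detected in 17.6% to 22.6% of thinned endothelial-like cells (35.7% to 48.8% unthinned) against 0% to 0.0738% of thinned SyS-like cells (0.0777% to 0.523% unthinned). Its neighbor *Robo3*, chosen after its values were seen, was at 11.6, 12.3, 15.7, 22.4 and 0.569 CPM in SyS-like cells and 2.24, 4.76, 2.81, 3.91 and 1.73 CPM in endothelial-like cells. PD+MP was the exception there, with the SyS-like below the endothelial-like level, and the call was lost without the tumor block (adjusted p = 0.056).

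Netrin genes and their receptors were mostly those of SyS-like cells. *Ntn1* and *Ntn3* were highest there among 3 tested netrins, and *Neo1*, *Unc5a*, *Unc5c* and *Unc5d* among 5 tested receptors; *Dcc* did not pass the filter. Against stromal cells the call of *Neo1* was lost without MP (adjusted p = 0.12), without MP+BP (0.070) and without the tumor block (0.064), and that of *Unc5c* without BP 1 (0.059), MP (0.093) or MP+BP (0.065) and without the block (0.053). *Ntn1*, the best studied netrin, was at 164, 124, 355, 256 and 159 CPM in SyS-like cells and highest in MP. Endothelial-like, macrophage-like and stromal cells reached 9.62 to 34.6, 7.49 to 17.5 and 5.45 to 52.7 CPM, below every SyS-like value, and the smallest log2 fold change was 2.87 ± 0.50 against endothelial-like cells (adjusted p = 0.0001).

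*Unc5d*, a repulsive netrin receptor, was at 48.1, 49.3, 1.34, 48.3 and 26.8 CPM in SyS-like cells, with MP inside the range of the other classes. Those were at 0 to 3.64 (endothelial-like), 0.213 to 7.37 (macrophage-like) and 0 to 2.23 CPM (stromal), and the smallest difference was 4.02 ± 0.60 against macrophage-like cells (adjusted p = 1.7e-05). *Neo1*, the broadly used netrin receptor, was steady at 93.5, 78.9, 90.5, 97.3 and 101 CPM in SyS-like cells against 5.88 to 20.7, 1.73 to 10.8 and 28.2 to 60.8 in endothelial-like, macrophage-like and stromal cells. *Unc5b*, the Unc5 receptor of vessels, went the other way, with 130.0, 138, 97.4, 52.9 and 53.5 CPM in endothelial-like and 10.3 to 40.4 CPM in SyS-like cells, and stromal cells at 37.1 to 90.3 CPM kept it from being highest in a single class.

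Semaphorins and plexins fell mostly to the other classes. Of 5 tested class 3 semaphorins, 2 were highest in endothelial-like cells and 1 (*Sema3a*) in SyS-like cells. Of 12 tested semaphorins of classes 4 to 7, 4 were highest in endothelial-like, 2 in macrophage-like and 2 in stromal cells, and none in SyS-like cells. Of 8 tested plexins, *Plxna2* and *Plxnd1* were highest in endothelial-like cells, *Plxnc1* in macrophage-like cells and *Plxna3* in SyS-like cells. Plexins summed to 718 to 875 CPM in endothelial-like cells, 347 to 452 in SyS-like, 328 to 511 in macrophage-like and 173 to 222 in stromal cells.

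*Sema3g* and *Sema3f*, secreted class 3 semaphorins, marked endothelial-like cells. *Sema3g* was at 17.5, 29.7, 13.4, 14.7 and 10.4 CPM there and at 0.220 to 0.944 CPM in SyS-like cells, with a difference of 5.12 ± 0.45 (adjusted p = 5.4e-08). Macrophage-like and stromal cells each held 2 UMIs of it, ratios of 209 (57.3 to 1731) and 62.1 (17.1 to 515), so the endothelial-like level lay above every other class. *Sema3f* was at 91.7, 75.9, 62.4, 64.6 and 67.3 CPM in endothelial-like cells, above 3.68 to 16.7, 0.797 to 1.74 and 0.732 to 2.33 CPM in SyS-like, macrophage-like and stromal cells. Its smallest log2 fold change was 3.41 ± 0.25 against SyS-like cells (adjusted p = 7.1e-09).

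*Sema7a*, a membrane-anchored semaphorin, was at 133, 149.9, 119.2, 185 and 58.7 CPM in endothelial-like cells, lowest in PD+MP. SyS-like, macrophage-like and stromal cells had 1.07 to 4.53, 0.290 to 1.49 and 0.732 to 7.42 CPM, and the smallest difference was 5.06 ± 0.40 against stromal cells (adjusted p = 5.8e-08). *Sema6b*, a transmembrane semaphorin, was at 13.0, 11.2, 20.6, 19.5 and 15.5 CPM in endothelial-like cells against 3.30 to 5.55, 1.92 to 5.50 and 2.23 to 5.90 CPM in SyS-like, macrophage-like and stromal cells, with a smallest difference of 1.92 ± 0.26 against macrophage-like cells (adjusted p = 9.5e-06).

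*Plxna2*, a plexin that reads class 6 semaphorins, was at 274, 277, 262, 278 and 357 CPM in endothelial-like cells. SyS-like, macrophage-like and stromal cells reached 18.4 to 52.0, 8.15 to 30 and 15.6 to 38.7 CPM, with a smallest log2 fold change of 3.27 ± 0.32 against stromal cells (adjusted p = 5.2e-07). *Plxnd1*, the vascular plexin, was at 495, 412, 417, 358 and 361 CPM in endothelial-like cells and at 75.2 to 104 CPM in macrophage-like cells, and was the only member lower in SyS-like cells (17.2, 15.2, 6.72, 10.5 and 6.14 CPM) than in each other class. *Sema6a* was also called highest in endothelial-like cells, but by 0.47 ± 0.17 over SyS-like cells (adjusted p = 0.025), and this call was lost without BP 2 (0.068), MP+BP (0.14), TMM scaling (0.34), the low-count filter (0.11) or the tumor block (0.060). It and the other members called in this class but not described (*Epha2*, *Sema6d*) lie outside the naming rule.

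**Figure D3:**
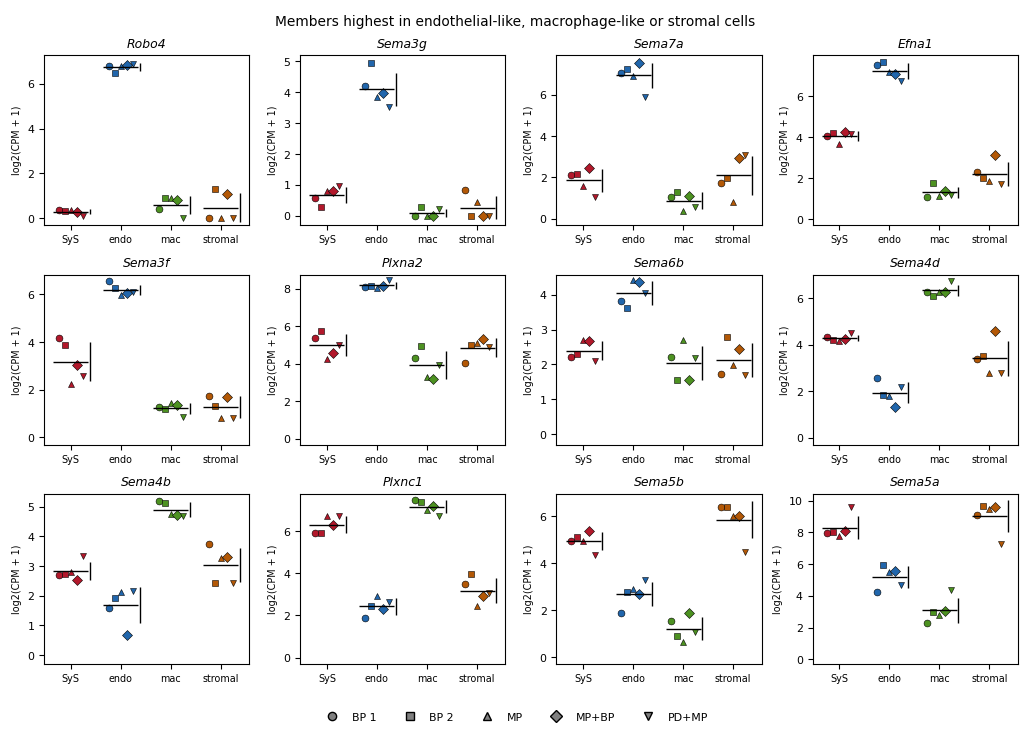
Levels, as log2(CPM + 1), of the members named for endothelial-like (endo), macrophage-like (mac) and stromal cells, with SyS-like cells (SyS) beside them, 1 point per tumor, the mean as a horizontal line and the SD as a vertical bar (n = 5). Endothelial-like points stand clear of the other classes for *Robo4* and *Plxna2*, while *Plxnc1* and *Sema5a* come close to or below SyS-like cells in PD+MP.

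Macrophage-like cells, the class with the lowest summed levels, were highest for the ligands *Sema4d* and *Sema4b* and the receptor *Plxnc1*. *Sema4d*, an immune semaphorin, was at 76.5, 66.2, 76.1, 76.4 and 106 CPM in these cells against 16.7 to 21.6 in SyS-like, 1.5 to 4.89 in endothelial-like and 5.85 to 23.2 in stromal cells, with a smallest difference of 2.69 ± 0.25 against SyS-like cells (adjusted p = 5.2e-08). *Sema4b* was at 35.9, 34.3, 26.1, 25.6 and 24.5 CPM against 4.81 to 9.25, 0.601 to 3.45 and 4.43 to 12.4 in SyS-like, endothelial-like and stromal cells, with a smallest difference of 2.19 ± 0.32 against stromal cells (adjusted p = 1.8e-05). *Plxnc1*, the receptor of *Sema7a*, was at 176, 167, 124, 145 and 104 CPM in macrophage-like and 58.8, 58.0, 102, 77.1 and 105 CPM in SyS-like cells. The CPM of the classes met in PD+MP, and the difference of 1.44 ± 0.25 (adjusted p = 8.1e-05) was on the trimmed-mean (TMM) scale. In small groups pooled over tumors, without a test, *Sema4d* reached 328 CPM (95% exact Poisson interval 275 to 389) in neutrophil-like cells and 98.4 CPM in T/NK-like cells, and *Plxnc1* 169 CPM in B-like and 163 CPM in dendritic-like cells. The B-like cluster also passed 3 macrophage markers, and their part in its *Plxnc1* level was not tested. Mast-like cells carried *Efnb2* at 283 CPM and *Neo1* at 133 CPM. These groups were unevenly drawn, with 116 of 165 neutrophil-like cells from BP 1. Of 230 mast-like cells, 110 came from MP and 109 from MP+BP.

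Stromal cells were highest for *Sema5a* and *Sema5b*, transmembrane semaphorins, and in PD+MP, where both parts of the stroma were present, the pericyte-like part held more of both. *Sema5a* was at 553, 813, 708, 780.2 and 152 CPM in stromal and 244, 263, 222, 273 and 775 CPM in SyS-like cells, so stroma was higher in 4 of 5 tumors and lower in PD+MP (1.21 ± 0.46, adjusted p = 0.039). This call was lost when any 1 of BP 1, BP 2, MP and MP+BP was left out (adjusted p = 0.11 to 0.16). *Sema5b* was at 82.5, 84.1, 64.4, 63.1 and 21.5 CPM in stromal cells and 19.2 to 40.0 CPM in SyS-like cells, with a smallest difference of 1.27 ± 0.28 against SyS-like cells (adjusted p = 0.0012). PD+MP was again the low tumor, inside the SyS-like range. In PD+MP the 38 pericyte-like cells held *Sema5a* at 357 and *Sema5b* at 114 CPM, and the 127 fibroblast-like cells 104 and 0 CPM. The fibroblast-like cells instead carried the ligands *Slit3* (983 CPM), *Sema3c* (442) and *Slit2* (403) and the receptor *Epha3* (126), genes chosen after their values were seen. The pericyte-like cells of the other 4 tumors held *Sema5a* at 557 to 819 and *Sema5b* at 64.4 to 84.1 CPM. In MP+BP, the 21 fibroblast-like cells held *Sema5b* at 0 and *Slit3* at 647 CPM, and its pericyte-like cells 67.6 and 209 CPM, so the parts differed in the same direction in both tumors.

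The share of cells with both a cue and a receptor of the matching family was highest in SyS-like cells for Slit and ephrin-A. It was highest in endothelial-like cells for *Sema6d* with *Plxna2*, the only class 6 pair counted. Whether *Plxna2* reads *Sema6d* here was not tested, and the plexin *Plxna1* was lower in endothelial-like cells than in each other class. After thinning to 2000 UMIs, 41.1% to 52.5% of SyS-like cells held a UMI of a Slit gene and of *Robo1* or *Robo2* (83.2% to 89.2% of the same cells before thinning), against at most 4.40% of endothelial-like, 0.67% of macrophage-like and 13.5% of stromal cells. Before thinning, those classes reached at most 16.4%, 2.12% and 37.8%. *Efna5* with *Epha4*, *Epha5* or *Epha7* was found in 20.6% to 58.6% of SyS-like cells (59.1% to 91.5% before thinning) and in at most 1.92% of any other class (12.8% before thinning). *Ntn1* with *Neo1*, *Unc5a*, *Unc5c* or *Unc5d* was found in 5.41% to 14.5% of SyS-like cells (46.9% to 71.2% before thinning). *Sema6d* with *Plxna2* was found in 16.2% to 25.9% of endothelial-like and at most 1.70% of SyS-like cells. Before thinning these shares were 51.4% to 64.4% and 10.3% to 22.7%. *Efnb2* with *Ephb4* was found in 5.47% to 7.87% of endothelial-like and at most 1.62% of SyS-like cells. Before thinning, at unlike depths, the shares were 26.0% to 31.7% and 18.8% to 28.2%, so the ranges overlapped. Conversely, *Sema7a* and its receptor *Plxnc1* were separated, with the ligand in 13.4% to 26.4% of endothelial-like cells and the receptor in 16.9% to 28.3% of macrophage-like and 9.74% to 18.2% of SyS-like cells. Shares of cells with a UMI do not show contact or signaling.

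RNA free in the suspension can be counted in any droplet. The 13 SyS markers summed in other classes to 2.92% to 5.44% of their SyS-like level. The median SyS-highest member stood at 2.57% to 17.0% of its SyS-like level in the other classes, and the part of free RNA in these low values was not tested.

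Of 51 further genes of the pathway (co-receptors, adaptors and cytoskeletal effectors), 46 were tested, and 13 were highest in SyS-like, 13 in endothelial-like, 5 in macrophage-like and 3 in stromal cells. In SyS-like cells these were led by the Unc5-binding membrane protein *Flrt1* (76.6 to 153 CPM), the axonal adhesion molecule *Cntn1* (2.47 to 105) and the membrane-anchored netrin relative *Ntng1* (113 to 238). In endothelial-like cells they were the actin-binding *Ablim3* (35.2 to 82.1 CPM), the collapsin response mediator *Crmp1* (9.32 to 19.2, at least 33.2-fold above stromal cells, which held 0 UMIs, at a floor of 3 counts over the class) and the adaptor *Sh2d3c* (60.4 to 87.6). In macrophage-like cells they included the kinase *Fes* (28.6 to 39.4 CPM) and the adhesion molecule *L1cam* (8.77 to 24.1, a call lost without MP+BP and without TMM scaling), and in stromal cells the Rac regulator *Chn1* (13.4 to 129.9), the actin-oxidizing *Mical2* (71.3 to 102) and the plexin-binding exchange factor *Farp1* (136 to 282). The co-receptor *Nrp1* was at 381, 414, 349, 362 and 362 CPM in endothelial-like cells and 92.6 to 166, 86.5 to 128 and 149 to 263 in SyS-like, macrophage-like and stromal cells. *Nrp2* was called highest in macrophage-like cells (266, 191, 215, 273 and 147 CPM), 0.61 above endothelial-like cells (141, 187, 144, 215 and 185 CPM) on the TMM scale (adjusted p = 0.014), though the CPM ranges overlapped.

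Among SyS-like cells the members varied further. Of 13 SyS-like clusters, 9 drew over 80% of their cells from 1 tumor, and 1 cluster of 2178 cells, led by *Mgp*, *Bmp5* and *Cartpt*, occurred in all 5 tumors (201, 731, 131, 914 and 201 cells). Its cells passed 7 SyS markers and 1 fibroblast marker of the lists used to name clusters. The SyS marker *Penk* and the fibroblast marker *Col1a1* were both among its leading genes. The 10 fibroblast markers summed to 1752 to 5442 CPM against 57.6 to 525 CPM in the remaining SyS-like cells of the same tumors. How this sum was shared among the markers is not given here. As a description without a test, 11 of the 58 tested members were higher and 13 lower in this cluster in all 5 tumors (19.0% and 22.4%), as were 13.2% and 18.6% of the 14686 genes tested between classes. The genes named here were chosen after their values were seen. The receptor *Epha3* was at 202, 121, 152, 213 and 200.5 CPM in the cluster and at 4.77, 2.46, 2.73, 3.44 and 51.7 CPM in the other SyS-like cells. The ligand *Sema3a* was at 88.0, 43.2, 123, 210.2 and 220.0 against 23.7, 20.4, 48.6, 39.5 and 30.3 CPM, and the ligand *Ntn4* at 121, 111, 144, 131 and 114 against 51.4, 43.7, 34.4, 69.6 and 8.57 CPM. *Slit2* was at 472, 357, 83.6, 127 and 272 against 348, 255, 3.13, 79.1 and 30.7 CPM, higher in the cluster also in MP. *Sema3c* (39.2 to 84.9 against 6.29 to 45 CPM) and *Sema3d* (7.23 to 65.4 against 0.184 to 2.51 CPM) were likewise higher in each tumor. By contrast, *Slit1* was at 30.6, 27.2, 12.8, 19.0 and 2.10 CPM in the cluster and 69.6, 88.9, 125, 186 and 13.1 CPM outside it, and *Ephb1* at 81.4 to 114 against 171 to 349 CPM, with every tumor lower. *Epha3*, *Sema3c* and *Slit2* were also high in the fibroblast-like cells of PD+MP. Those cells held *Sema3d* at 33.9 and *Ntn4* at 61.3 CPM as well, but *Sema3a* at only 7.32 CPM. The part of fibroblast RNA in the values of the cluster was not tested.

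**Figure D4:**
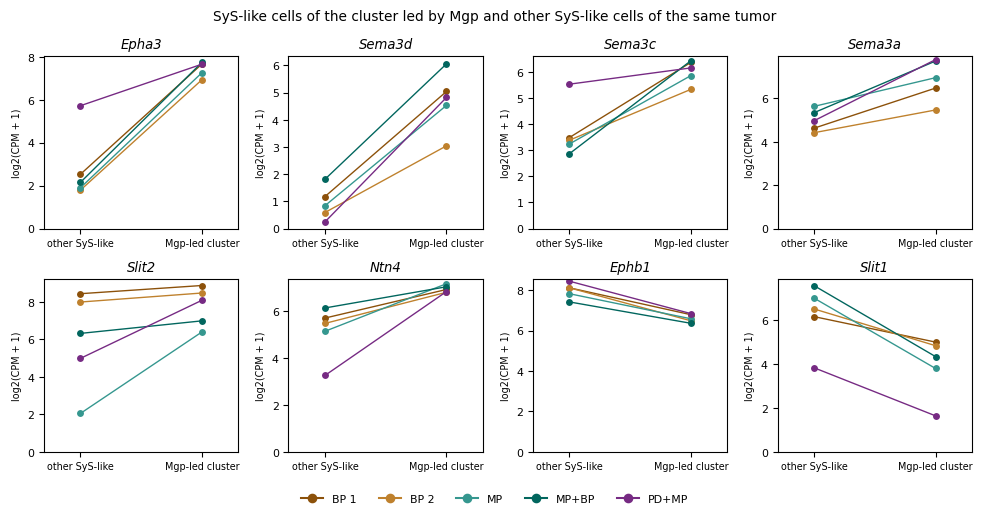
Level, as log2(CPM + 1), of 8 members in the *Mgp*-led SyS-like cluster (right) and in all other SyS-like cells (left), 1 line per tumor. The lines of *Epha3*, *Sema3d*, *Sema3c*, *Sema3a*, *Slit2* and *Ntn4* go up in all 5 tumors and those of *Ephb1* and *Slit1* go down in all 5.

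A further cluster of 1606 cells, 99.4% of them from MP+BP, held 8 SyS markers but was left unnamed because its 10 leading genes included *Trac*, a T cell gene, and a fibroblast marker, and none of the SyS markers. It carried *Unc5d* at 113 CPM and *Efna1* at 39.1 CPM, the latter above the 11.5 to 17.9 CPM of SyS-like cells.

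The second comparison asked whether the members differed between the tumors with a biphasic component (BP 1, BP 2 and MP+BP) and the others (MP and PD+MP). In SyS-like cells all 68 members were tested among 20698 genes, and none passed (edgeR, smallest adjusted p = 0.519), nor did any gene (0.0% called, smallest adjusted p = 0.424). At an unadjusted p under 0.05 there were 9 members, 6 of them higher with the biphasic label, while 9.4% of all genes reached this level. DESeq2 called 462 genes (2.23%), 2 of them members. Leaving out MP, so that PD+MP alone stood against the others and was taken to vary like them, gave 6 of 68 members in SyS-like cells (2.04% of 21391 genes) and 15 of 40 in stromal cells (8.93% of 10673 genes), where the stroma of PD+MP was mostly fibroblast-like. The values of the 2 sides did not overlap for 20 members (15 higher, 5 lower), and for 26.4% of all genes.

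The rule named only members whose sides did not overlap, so the lack of overlap below was set by the choice. *Slit2* had the widest difference among the members named by the rule. It stood at 352, 262, 4.06, 85.4 and 35.5 CPM, so the BP tumors were highest and MP nearly lacked it, with a log2 fold change of 3.46 ± 1.11 (adjusted p = 0.519 in edgeR and 0.0095 in DESeq2). *Efnb1*, an ephrin-B ligand known from boundary formation between tissues, was at 224, 377, 39.5, 89.5 and 64.2 CPM, or 2.08 ± 0.66 (adjusted p = 0.519 in edgeR and 0.049 in DESeq2). BP 2 was far above the rest, and MP+BP was nearer to PD+MP than to the BP tumors. *Sema3f* was at 16.7, 13.7, 3.68, 7.2 and 4.94 CPM (1.46 ± 0.44) and *Plxnd1* at 17.2, 15.2, 6.72, 10.5 and 6.14 CPM (1.07 ± 0.31), both without overlap and neither past the test (adjusted p = 0.519 and 0.519).

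For *Unc5d* (1.69 ± 1.08), *Epha8* (1.45 ± 1.08) and *Ntn4* (1.29 ± 0.53), 1 tumor stood far below the others. This was MP for *Unc5d*, and PD+MP for the receptor *Epha8* (16.4, 17.0, 12.3, 21.8 and 0.569 CPM) and the ligand *Ntn4* (53.9, 48.1, 35.7, 77.9 and 10.7 CPM). *Plxna4*, a plexin, was the named member with lower levels in the biphasic tumors, 92.7, 72.3, 168, 112 and 136 CPM (-0.80 ± 0.22, adjusted p = 0.519). All 3 tumors with a biphasic component lay below both others. These values moved with single tumors. Without MP the log2 fold change was 0.75 for *Unc5d*, 4.90 for *Epha8*, 2.38 for *Ntn4* and 2.61 for *Slit2*, and without PD+MP it was 5.13, 0.54, 0.70 and 5.81. *Epha8* and *Ntn4* passed the test only without MP (adjusted p = 0.025 and 0.0497).

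**Figure D5:**
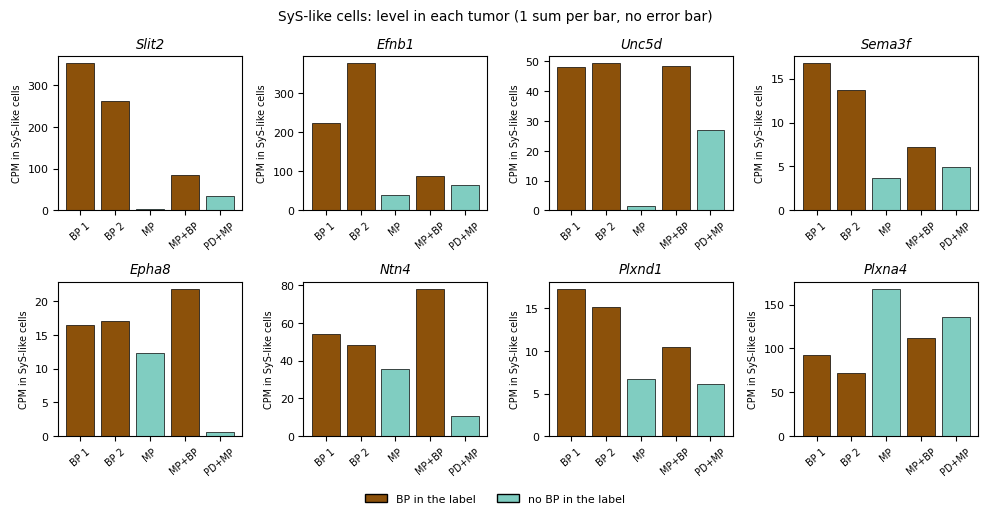
Level in CPM of the 8 members named in the label comparison in the SyS-like cells of each tumor (1 bar per tumor, bars start at 0, no error bar because each is 1 tumor). The 3 tumors with a biphasic component lie above the other 2 for all shown members except *Plxna4*, where they lie below. The rule that named these members took only those without overlap, so this separation was set by the choice.

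In the other classes no member passed either in edgeR (0.00783% of genes did in endothelial-like cells and 0.0% in macrophage-like and stromal cells) or in DESeq2 (0.536%, 0.195% and 0.0296% of genes). In endothelial-like cells 46 members were tested, 4 were under 0.05 unadjusted (8.56% of genes) and 9 did not overlap (28.0%). Macrophage-like cells had 34 tested members, with 2 (10.0%) and 9 (28.4%), and stromal cells 34, with 2 (5.08%) and 9 (21.6%). *Slit2* was again higher on the biphasic side in endothelial-like (8.56, 7.28, 2.99, 8.12 and 0 CPM) and macrophage-like sums (1.42, 4.26, 0.290, 3.1 and 0.319 CPM), where its levels were low, and the part of free RNA was not tested. In stromal cells *Slit2* went the other way, with a mean of 46.0 CPM on the biphasic side and 181 CPM on the other (-2.05 ± 1.00). The ranges overlapped there, and the stroma of PD+MP was mostly fibroblast-like. A p that misses the threshold does not show that the tumors were alike.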

How the data were processed

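Single-cell 3′ RNA-seq libraries (10x v3.1) were made from 5 dissociated tumors. Per the file headers and the submitters' notes, the authors made the deposited counts with Cell Ranger 7.2.0 on mm10, as filtered matrices of raw UMI counts, 1 per tumor. The reference release, and whether intron reads were counted, are not given in the sources used here. Counts were not corrected for free RNA. No column of another sample was used.

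Cells with under 750 genes (8488), over 25% mitochondrial counts (666) and likely doublets (2957) were removed. Because the automatic Scrublet threshold marked few cells, the highest scores were removed up to 0.8% per 1000 cells. Kept cells per tumor numbered 6328 to 9486, with a median of 6340 to 8528 UMIs. Cells were clustered with scanpy 1.11.5 and leidenalg 0.10.2 (3000 features without the members and pathway genes, 30 components, resolution 1), and 31 clusters were named from marker lists. The names were rebuilt here and may differ from those of the study.

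Counts were summed per tumor and class (54710107 to 91050797 UMIs in SyS-like and 677592 to 2733444 in stromal sums). Classes were compared with the quasi-likelihood test of edgeR 4.0.16 (R 4.3.3) after filterByExpr and TMM scaling, in a fit over the 4 classes with tumor as a block, since classes of a number come from the same tumor (correlation of their deviations 0.085 to 0.354, median 0.191). Benjamini-Hochberg adjustment ran over all 14686 genes per contrast, at 0.05, and a member was highest in a class when it passed against each other class. The label comparison was fitted per class, without a covariate, on 3 against 2 tumors, and DESeq2 1.42.0 was an alternative. All p-values are two-sided and cover the spread between these tumors. BP 1 and BP 2 were not the same library (median chi-square per gene 5.52 against 0.455 for sampling noise, 20504 genes). CPM values carry no TMM factor, and error values are SE for log2 fold changes.

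Both tests were checked on simulated counts. The class test for SyS-like cells recovered 32% of 2-fold and 86% of 4-fold changes. The label test recovered 0% and 15% in SyS-like, 22% and 95% in endothelial-like, 19% and 80% in macrophage-like, and 0% and 12% in stromal cells. False calls numbered 0 in the class test and 2 to 17 in the label test. Changes of these sizes with the label could thus be missed, most of all in SyS-like and stromal cells.

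Named were, per class, up to 7 members with the largest smallest fold change among those highest in it, the members on the SAT list, up to 8 members in the label comparison that did not overlap and reached 5 CPM, known counterparts, *Nrp1*, *Nrp2* and up to 3 pathway genes per class, of which 1 is not reported here. Members and lists were chosen with earlier results of these data known. Alternatives covered scaling, filters, doublets, clustering resolution, cell filters, thinning, the block, cluster naming and leaving out each tumor. For shares of cells, 2.35% of SyS-like, 18.5% of endothelial-like, 1.85% of macrophage-like and 12.1% of stromal cells fell below 2000 UMIs and were left out. Intervals cover counting error only.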

Additional observations from a re-analysis of the deposited data

Results flagged for a closer look

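For named members, each class was checked for 1 tumor far from the other 4 (gap over range of log2(CPM + 1) above 0.71), in 28 groups of 5 tumors. About 1.4 such cases would be expected for independent groups picked without regard to their values, and 6 were found. Some members, such as *Epha8*, were named from these same values, so the counts are a description and not a test. In SyS-like cells *Unc5d* was low in MP (1.34 CPM) and *Epha8* low in PD+MP (0.569 CPM). In endothelial-like cells *Robo4* was low in BP 2 (87.7 CPM, in a narrow range) and *Plxna2* high in PD+MP (357 CPM, from 80 cells). In stromal cells *Sema5b* (21.5 CPM) and *Sema5a* (152 CPM) were both low in PD+MP, where 127 of 165 stromal cells were fibroblast-like.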

How the results depend on the processing

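Over 22 settings of the class comparison, 15 of 22 SyS-like, 12 of 13 endothelial-like, 3 of 3 macrophage-like and 1 of 2 stromal calls held wherever the member could be tested. No named value changed direction. A minimum of 10 counts in every sum left 12 members to test, of which 4 were highest in SyS-like, 4 in endothelial-like, 0 in macrophage-like and 1 in stromal cells (pathway genes 12 in place of 34). *Sema5a* lost its call, leaving 1 stromal member, with both BP tumors summed, each pair of classes fitted alone, no TMM scaling, no filter, no replicate block and without BP 1, BP 2, MP or MP+BP in turn. Without the replicate block that pairs classes of a tumor, 19 SyS-like, 12 endothelial-like and 3 macrophage-like members were called, 18, 12 and 3 of them shared with the blocked fit. Leaving out a tumor gave 17 to 29 SyS-like, 12 to 13 endothelial-like, 3 macrophage-like and 1 to 2 stromal members, and 31 to 39 pathway genes. No TMM scaling shifted the median of all genes by 0.59 (SyS-like over macrophage-like), 0.29 (over endothelial-like) and 0.28 (over stromal cells) on the log2 scale. For the biphasic label, DESeq2 called 2 members in SyS-like cells (2.94% of members, 2.23% of genes), and dropping the filter gave 2 in endothelial-like (2.94% and 1.77%) and 3 in macrophage-like cells (4.48% and 2.58%). Leaving out a tumor gave 0 to 6 members in SyS-like and 0 to 15 in stromal cells, the highest without MP (8.82% of members against 2.04% of genes, and 37.5% against 8.93%), and 0 in the other classes. The causes were not tested. No paired analysis was possible because the label groups share no replicate pairing. Setting the *Mgp*-led cluster apart, counting the unnamed MP+BP cluster as SyS-like, and leaving out shallow clusters or an endothelial-like cluster with pericyte markers were chosen after seeing the data and kept all counts within 1.5 times. The shallowest sum was that of endothelial-like cells of PD+MP (579508 UMIs).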
